A study of Mus musculus with 7 samples.

Results

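Scavenger receptors are the surface and secreted proteins through which macrophages bind modified lipoproteins, dying cells, myelin debris and microbial surfaces. A group of 8 mouse genes for such proteins was followed: Msr1, Marco, Cd36, Scarb1, Scarb2, Olr1, Stab1 and Cd5l. They were taken by gene symbol from a table of 23361 genes, and all 8 were found in it. All 8 also passed the filter on low counts and were among the 12858 genes tested.

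The cells were macrophages sorted from the tissue bridge that forms inside an inert conduit after the sciatic nerve of wild-type BALB/cJ mice is cut and repaired at once. The sort took cells negative for lineage markers and positive for F4/80, CD14, CD11b and CD16/32, at day 5 (3 libraries), day 14 (2 libraries) and day 28 (2 libraries) after repair. No uninjured nerve or untreated macrophage library was part of the comparison, and the age of these mice is not given in the sources used here. Polyadenylated RNA was sequenced, and the libraries held 26167372, 21509710 and 21889611 fragments at day 5, 18027190 and 20822892 at day 14, and 35247116 and 18101976 at day 28. Nothing in the labels says whether a library came from a separate animal or a pool, so p-values measure the spread between these libraries. Levels are given as FPKM, which here are fragments scaled by transcript length and by the between-library scaling of the program Cuffdiff, not by total fragments alone. This unit allows levels of different genes to be set side by side.

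As background, scavenger receptors are sorted into classes by structure and not by descent. Class A receptors (Msr1, Marco) are trimers with a collagen-like stalk, class B receptors (Cd36, Scarb1, Scarb2) cross the membrane at both ends of the protein, Olr1 is a C-type lectin of class E, and Stab1 is a large class H receptor. Cd5l is a secreted protein built of scavenger receptor cysteine-rich domains. After a nerve is cut, macrophages take up degenerating myelin, and the lipid is stored, broken down in lysosomes or exported.

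Between days 5 and 28, Msr1, Scarb2 and Cd5l fell by edgeR, which called no gene of the group in the upward direction. Cd36 and Olr1 were higher in every day 28 library than in any day 5 library; edgeR on all libraries did not call them (adjusted p = 0.0512 and 0.0558), and DESeq2 called both higher (adjusted p = 0.00380 and 0.0200). Msr1 was already lower at day 14. The plot of FPKM by library shows all 8 genes.

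**Figure D1:**
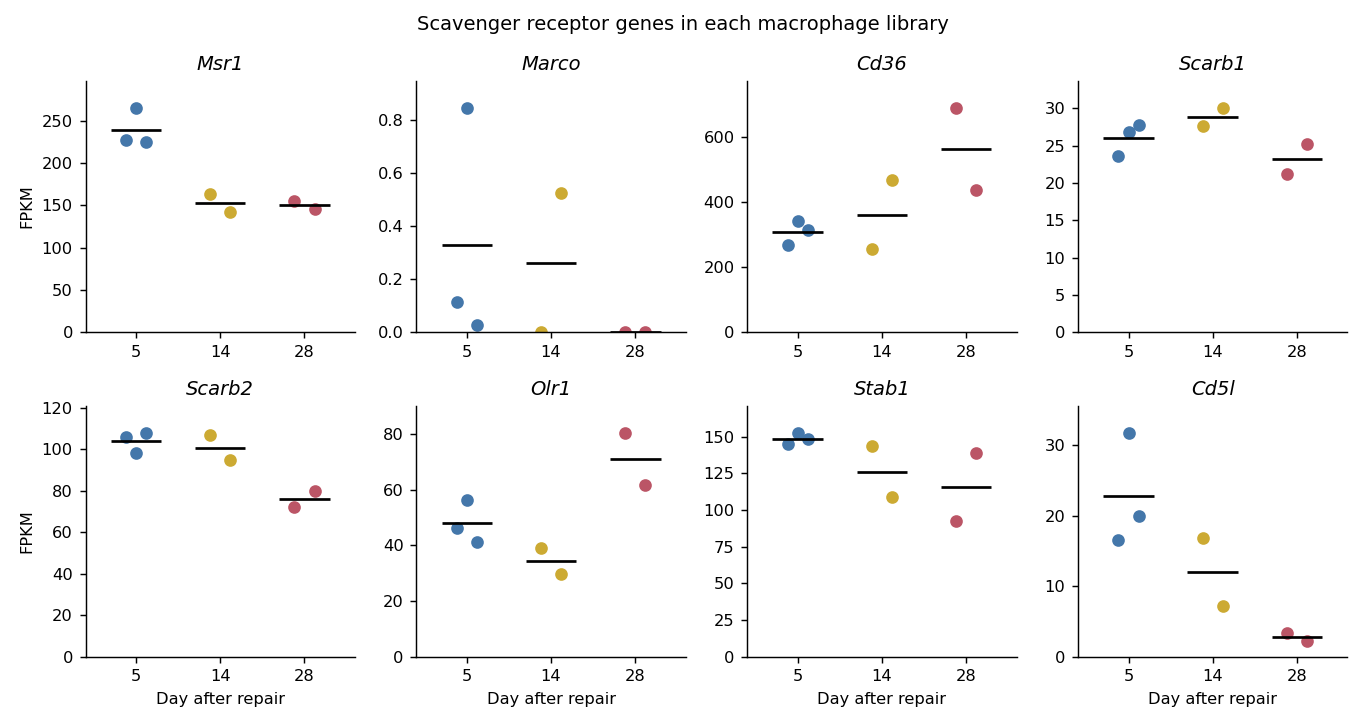
FPKM of the 8 scavenger receptor genes by day after repair, with 1 point per library and a bar at the mean of each day (3, 2 and 2 libraries); each panel has its own linear axis from 0. Cd5l lies at 16.6 to 31.8 FPKM at day 5 and at 2.18 to 3.31 FPKM at day 28, and Marco stays under 1 FPKM in every library.

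The macrophage label was checked against markers. All 8 macrophage and sort markers (Emr1, Cd14, Itgam, Fcgr3, Fcgr2b, Csf1r, Cd68 and Mertk) were detected, and their summed FPKM was 6205, 5763 and 5741 at day 5, 4807 and 4113 at day 14, and 3901 and 4341 at day 28. In this sum every day 5 library lay above every later library, as also for Emr1, Cd14, Itgam and Cd68. For Fcgr3 every day 5 library lay below every later library, and for Fcgr2b, Csf1r and Mertk there was neither order. Of genes chosen after their values were seen, Emr1 (F4/80) was at 470, 393 and 365 FPKM at day 5, 344 and 249 FPKM at day 14, and 195 and 209 FPKM at day 28, and Fcgr3 was at 232, 245 and 242 FPKM at day 5, 255 and 276 FPKM at day 14, and 268 and 249.7 FPKM at day 28. By edgeR 2 of the 8 were lower at day 28 vs day 5, Emr1 (-1.01 in log2 units, SE 0.17, adjusted p = 0.00650) and Cd14; there were 4 lower with DESeq2, 4 without either day 14 library, 1 without day 5 replicate 1 (Emr1) and 0 without day 28 replicate 1. Cd14 was the most abundant, at 3003, 2635 and 2659 FPKM at day 5, 1837 and 1431 FPKM at day 14, and 1433 and 1799 FPKM at day 28. Some of these 8 markers also stand in the lists of related genes, as Cd68 does among other scavenger receptors and Cd14 among co-receptors.

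The day 14 libraries stood apart from each other. Over 7613 genes with a mean of at least 5 FPKM, the root mean square difference of log2(FPKM + 1) from the day means was 0.431 to day 5 and 0.534 to day 28 for replicate 1, and 0.558 to day 5 and 0.391 to day 28 for replicate 2. Replicate 1 also had the highest level of fibroblast markers, as given with the markers of other cells. These distances were chosen after the values were seen. Comparisons with day 14 rest on these 2 libraries.

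Msr1 (chromosome 8, 39581685 to 39642673, minus strand, in the GENCODE annotation of GRCm38) encodes class A receptor SR-A, which binds modified low-density lipoprotein and other polyanions. Its level was 227, 265 and 224 FPKM in the day 5 libraries, 163 and 142 FPKM at day 14, and 154 and 146 FPKM at day 28. Every day 5 library lay above every later library, and the day 14 and day 28 values overlapped. Msr1 fell from 239 ± 22.8 FPKM (SD, n = 3) at day 5 to 152 ± 14.8 FPKM (SD, n = 2) at day 14, a difference of -0.62 in log2 units (SE 0.14, adjusted p = 0.0409, edgeR). The level at day 28 was 150.1 ± 6.07 FPKM (SD, n = 2), again -0.62 from day 5 in log2 units (SE 0.14, adjusted p = 0.0192, edgeR). From day 14 to day 28 the log2 difference was 0.0014 (SE 0.15, adjusted p = 0.998, edgeR), with a range of -0.11 to 0.12 without each library in turn.

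The call for Msr1 at day 14 held without day 14 replicate 1 (adjusted p = 0.0110, edgeR), and was lost when any other library was left out, with adjusted p-values of 0.1005, 0.135 and 0.0999 without day 5 replicates 1, 2 and 3, 0.142 without day 14 replicate 2, and 0.0550 and 0.0577 without day 28 replicates 1 and 2. The call at day 28 was lost without day 5 replicate 2 (0.0740), day 28 replicate 1 (0.0680) or day 28 replicate 2 (0.0963). The log2 fold change stayed between -0.75 and -0.51 at day 14 and between -0.72 and -0.54 at day 28 in those fits.

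Marco (chromosome 1, 120474538 to 120505024, minus strand), the other class A gene and a receptor for bacteria and particles on some tissue macrophages, was near the limit of detection. The day 5 libraries held 5, 31 and 1 fragments, the day 14 libraries 0 and 21, and the day 28 libraries 0 and 0. These are levels of 0.115, 0.844 and 0.0256 FPKM at day 5 and of 0 and 0.524 FPKM at day 14. Against a floor of 3 fragments per library, the day 5 mean of 0.559 CPM (fragments scaled to library size) makes Marco at least 4.46-fold lower at day 28, but without day 5 replicate 2 the mean of 0.118 lies under the floor of 0.125 CPM. No comparison passed the test (adjusted p = 0.941, 0.418 and 0.139, edgeR, for day 5 to day 14, for day 14 to day 28 and for day 5 to day 28).

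Cd36 (chromosome 5, 17781690 to 17888801, minus strand) encodes a class B receptor for oxidised lipoprotein and long-chain fatty acids. It had the highest level of the group in every library. The values were 267, 342 and 313 FPKM at day 5, 256 and 467 FPKM at day 14, and 689 and 437 FPKM at day 28. Day 14 replicate 1 lay below the lowest day 5 library and replicate 2 above the highest, while day 28 lay above day 5 in each library. The mean was 307 ± 37.6 FPKM (SD, n = 3) at day 5, 361 ± 149 FPKM (SD, n = 2) at day 14 and 563 ± 178 FPKM (SD, n = 2) at day 28.

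For day 28 vs day 5 Cd36 differed by 0.88 in log2 units (SE 0.26, adjusted p = 0.0512, edgeR), just outside the threshold of 0.05. It passed when either day 14 library was left out of the shared estimate of spread (adjusted p = 0.00419 without replicate 1 and 0.00466 without replicate 2, edgeR), and without day 28 replicate 1 the log2 fold change was 0.52 (adjusted p = 0.356, edgeR). Over the alternatives its adjusted p ran from 0.00215 to 0.356. The day 14 vs day 5 difference of 0.24 (SE 0.26, adjusted p = 0.623, edgeR) was smaller than its error and became 0.61 without day 14 replicate 1 and -0.27 without day 14 replicate 2. From day 14 to day 28 the difference was 0.64 (SE 0.29, adjusted p = 0.419, edgeR), and it was called without day 14 replicate 2, at 1.15 (adjusted p = 0.0247, edgeR), but was 0.27 without day 14 replicate 1 (adjusted p = 0.769, edgeR) and 0.27 without day 28 replicate 1 (adjusted p = 0.908, edgeR).

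Scarb1 (chromosome 5, 125277087 to 125341094, minus strand) encodes SR-B1, the receptor that takes up cholesteryl ester from high-density lipoprotein. Its values were 23.6, 26.8 and 27.7 FPKM at day 5, 27.7 and 30.0 FPKM at day 14, and 21.3 and 25.3 FPKM at day 28. Day 14 lay above day 28, and day 5 overlapped both. Its mean was 26.0 ± 2.16 FPKM (SD, n = 3) at day 5, 28.9 ± 1.67 FPKM (SD, n = 2) at day 14 and 23.3 ± 2.83 FPKM (SD, n = 2) at day 28. The log2 differences were 0.16 (SE 0.12), -0.32 (SE 0.13) and -0.17 (SE 0.12) in the order of comparisons given for Marco, and none passed the test (adjusted p = 0.466, 0.377 and 0.390, edgeR). Without each library in turn they ran from 0.089 to 0.22, from -0.46 to -0.21 and from -0.30 to -0.047, and none was called.

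Scarb2 (chromosome 5, 92441314 to 92506833, minus strand) encodes LIMP-2, an abundant membrane protein of lysosomes. The 250 bases before its RefSeq gene start (GRCm38.p6, chr5:92505658-92505907, minus strand), which lie inside the GENCODE span just given, are shown because Scarb2 and Cd5l fell between the same days. The first bases of the transcript were left out, a choice made after the tables were seen. Capitals mark matches on either strand to the letters searched. For Scarb2 these were TGANNNNGC, where N is any base, a loose pattern for the core of the antioxidant response element. The matches had left ends 118 bases (opposite strand) and 99 bases (gene strand) before the RefSeq gene start.
Scarb2: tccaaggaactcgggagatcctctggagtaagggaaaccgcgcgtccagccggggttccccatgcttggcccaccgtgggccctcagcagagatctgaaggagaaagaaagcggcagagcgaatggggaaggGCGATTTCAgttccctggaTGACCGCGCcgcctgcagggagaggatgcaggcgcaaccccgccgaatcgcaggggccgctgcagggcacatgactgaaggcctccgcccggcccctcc

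The Scarb2 level was 106, 98.1 and 108 FPKM at day 5, 107 and 94.7 FPKM at day 14, and 72.1 and 79.9 FPKM at day 28. The day 28 libraries lay below all others, and days 5 and 14 overlapped. Scarb2 fell from 104 ± 5.29 FPKM (SD, n = 3) at day 5 to 76.0 ± 5.54 FPKM (SD, n = 2) at day 28, a log2 difference of -0.44 (SE 0.12, adjusted p = 0.0334, edgeR). At day 14 the mean was 100.9 ± 8.70 FPKM (SD, n = 2), with log2 fold changes of -0.036 from day 5 (SE 0.11, adjusted p = 0.879, edgeR) and, to day 28, of -0.40 (SE 0.13, adjusted p = 0.239, edgeR). The call at day 28 was lost without day 5 replicate 1, 2 or 3 (adjusted p = 0.103, 0.0746 and 0.110, edgeR) and without day 28 replicate 1 or 2 (0.179 and 0.0667), while the log2 fold change stayed between -0.52 and -0.37. The day 14 vs day 5 difference ran from -0.12 to 0.046 without each library in turn.

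Olr1 (chromosome 6, 129485244 to 129507165, minus strand) encodes LOX-1, a lectin-like receptor for oxidised low-density lipoprotein. Its values were 46.3, 56.2 and 41.2 FPKM at day 5, 39.2 and 29.7 FPKM at day 14, and 80.5 and 61.7 FPKM at day 28. The days did not overlap, with day 14 lowest and day 28 highest. The day means were 47.9 ± 7.64 (SD, n = 3), 34.4 ± 6.76 (SD, n = 2) and 71.1 ± 13.3 FPKM (SD, n = 2).

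No comparison of Olr1 passed the test with all libraries. The log2 difference was -0.47 for day 14 vs day 5 (SE 0.18, adjusted p = 0.162, edgeR), 1.05 for day 28 vs day 14 (SE 0.20, adjusted p = 0.0850, edgeR) and 0.59 for day 28 vs day 5 (SE 0.18, adjusted p = 0.0558, edgeR). Without day 14 replicate 1 all 3 differences were called (adjusted p = 0.0455, 0.0470 and 0.0163, edgeR), and without day 14 replicate 2 the last 2 were (0.0405 and 0.0176). The sizes ran from -0.68 to -0.28, from 0.84 to 1.26 and from 0.38 to 0.76 without each library in turn. DESeq2 called day 28 vs day 14 and day 28 vs day 5 (adjusted p = 0.000117 and 0.0200), within ranges over the alternatives of 0.000117 to 0.501 and 0.00986 to 0.322.

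Stab1 (chromosome 14, 31139013 to 31168641, minus strand) encodes stabilin-1, an endocytic receptor of macrophages and sinusoidal endothelium that clears extracellular matrix products such as SPARC. Its level was 145, 153 and 148 FPKM at day 5, 143 and 109 FPKM at day 14, and 92.4 and 139 FPKM at day 28. In FPKM all later libraries lay below day 5, but the later days spread more widely, with means of 149 ± 4.07 (SD, n = 3), 126 ± 24.1 (SD, n = 2) and 116 ± 32.9 FPKM (SD, n = 2). By share of all fragments in the library this order did not hold. Day 5 replicate 1 had 27460 of 26167372, a lower share than day 14 replicate 1 (20214 of 18027190) and day 28 replicate 2 (20839 of 18101976). The log2 difference was -0.23 for day 14 vs day 5 (SE 0.18, adjusted p = 0.485, edgeR), -0.12 for day 28 vs day 14 (SE 0.20, adjusted p = 0.847, edgeR) and -0.35 for day 28 vs day 5 (SE 0.18, adjusted p = 0.227, edgeR). Without each library in turn these ran from -0.43 to -0.047, from -0.45 to 0.14 and from -0.68 to -0.086, and none was called (lowest adjusted p = 0.191, 0.305 and 0.0621, edgeR). Its exons share 112 bases with those of Nt5dc2 on the opposite strand, and since the kit does not mark strand, reads of that stretch cannot be told apart.

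Cd5l (chromosome 3, 87357881 to 87371073, plus strand) encodes AIM, a secreted macrophage protein that binds fatty acid synthase in fat cells and circulates with IgM. In the 250 bases before its gene start (RefSeq, GRCm38.p6, chr3:87357631-87357880, plus strand), capitals mark a match to GAGGAA, the core bound by the macrophage factor PU.1, with its left end 66 bases before the gene start, and a match to TGANNNNGC with its left end 34 bases before it. Both read on the opposite strand, and they do not overlap.
Cd5l: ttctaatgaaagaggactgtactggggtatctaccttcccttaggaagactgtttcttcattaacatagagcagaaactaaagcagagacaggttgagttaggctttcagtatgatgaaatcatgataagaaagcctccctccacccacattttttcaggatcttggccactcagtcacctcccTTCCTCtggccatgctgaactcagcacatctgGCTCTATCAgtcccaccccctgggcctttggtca

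Of the genes called, Cd5l had the largest change. Its values were 16.6, 31.8 and 19.9 FPKM at day 5, 16.8 and 7.13 FPKM at day 14, and 3.31 and 2.18 FPKM at day 28. The day 28 libraries lay below all others, and day 14 replicate 1 lay within the day 5 values. The mean went from 22.8 ± 7.99 FPKM (SD, n = 3) at day 5 to 12.0 ± 6.87 FPKM (SD, n = 2) at day 14 and 2.74 ± 0.801 FPKM (SD, n = 2) at day 28, which is 12.1% of the day 5 mean. Between 77 and 1201 fragments lay behind each value.

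Cd5l fell by 3.01 on the log2 scale from day 5 to day 28 (SE 0.42, adjusted p = 0.00308, edgeR), and was called without each library in turn, with adjusted p-values from 3.84e-05 to 0.0382. The steps between were not called, at -0.92 from day 5 to day 14 (SE 0.37, adjusted p = 0.174, edgeR) and -2.08 from day 14 to day 28 (SE 0.43, adjusted p = 0.09996, edgeR). Without day 14 replicate 1 the earlier step was -1.66 (adjusted p = 0.0110, edgeR) and the later step -1.35 (adjusted p = 0.173, edgeR), and without day 14 replicate 2 they were -0.43 (adjusted p = 0.578, edgeR) and -2.58 (adjusted p = 0.00158, edgeR). The earlier step was -0.60 without day 5 replicate 2 (adjusted p = 0.410, edgeR). With any library but day 14 replicate 2 left out, the later step was not called (adjusted p up to 0.483, edgeR). In bulk RNA, fewer cells that make Cd5l and less Cd5l RNA per cell cannot be told apart.

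**Figure D2:**
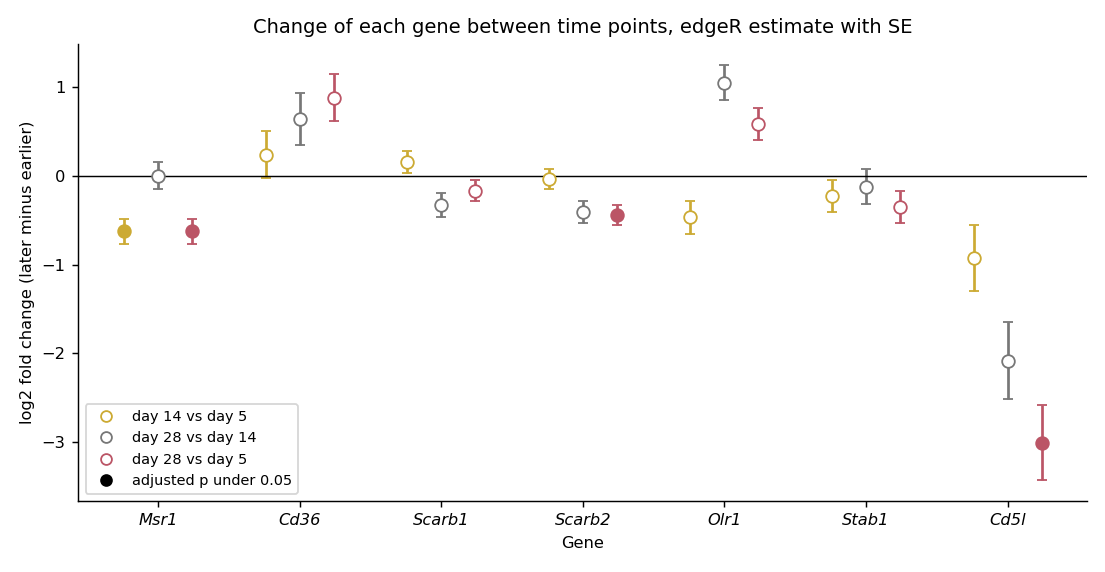
Log2 fold change (later minus earlier day) of 7 scavenger receptor genes in each comparison, as estimated by edgeR, with bars of 1 SE; filled points have an adjusted p under 0.05. Marco is left out because its day 28 libraries were at 0. The filled points are Msr1 at days 14 and 28 and Scarb2 and Cd5l at day 28, all against day 5 and all below 0.

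For day 14 vs day 5, which covers the step from the early to the middle response, edgeR called 1 of the 8 genes, Msr1, against 614 genes or 4.78% of all genes tested (1.94% of all in the downward direction). In FPKM the libraries of both days did not overlap for 3 of the 8 (Msr1, Olr1 and Stab1, all lower), against 43.2% of all genes. By share of all fragments in the library Stab1 did overlap. Without day 14 replicate 1 there were 3 of the 8 (Msr1, Olr1 and Cd5l) and 1728 of all genes. Without any other library there were 0 of the 8, and all-gene counts of 63, 106 and 52 without day 5 replicates 1, 2 and 3, 285 without day 14 replicate 2, and 359 and 322 without day 28 replicates 1 and 2. At an unadjusted p under 0.05 there were 3 of the 8 (Msr1, Olr1 and Cd5l) and 3083 of all genes.

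For day 28 vs day 14, the later step, edgeR called 0 of the 8, against 8 genes or 0.0622% of all. At an unadjusted p under 0.05 there were 4 of the 8 (Scarb1, Scarb2, Olr1 and Cd5l) and 1570 of all genes. DESeq2 called 2 of the 8 (Olr1 and Cd5l), against 332 of all genes, and limma called 0 of the 8 and 0 of all genes. The libraries did not overlap for 4 of the 8 (Olr1 higher, and Scarb1, Scarb2 and Cd5l lower), against 39% of all genes. The count was 1 of the 8 (Olr1) and 33 of all genes without day 14 replicate 1, and 3 of the 8 (Cd36, Olr1 and Cd5l) and 629 of all genes without day 14 replicate 2. It was 0 of the 8 without each of the others, with 0 of all genes without any day 5 library, and 1 and 36 without day 28 replicates 1 and 2.

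For day 28 vs day 5, the widest span of the design, edgeR called 3 of the 8 genes, against 1960 genes or 15.2% of all. All 3 were lower, against 7.51% of all genes called lower. With a change of at least 2-fold between the means and a mean of at least 5 FPKM on either day as well, only Cd5l was left of the 8, against 3.52% of all genes. DESeq2 called 6 of the 8, adding Cd36, Olr1 and Marco. Of the 8, 5 were called without either day 14 library, where Cd36 and Olr1 came in, and only Cd5l was called without day 5 replicate 2 or either day 28 library. Without day 5 replicates 1 and 3 there were 2 each (Msr1 and Cd5l). All-gene counts were 820, 916 and 967 without day 5 replicates 1, 2 and 3, 2746 and 2739 without day 14 replicates 1 and 2, and 452 and 1012 without day 28 replicates 1 and 2, and DESeq2 called 2485 genes. In FPKM the libraries did not overlap for 7 of the 8 genes, all but Scarb1, against 51.5% of all genes. For Marco this rests on 1 fragment in day 5 replicate 3 against 0 at day 28, under the floor of 3 fragments. For Stab1 it depends on the scaling between libraries, as by share of all fragments its libraries overlapped.

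The median log2 fold change over the 8 genes was -0.23, -0.22 and -0.39 in the order of comparisons given for Marco, beside 0.027, 0.0093 and 0.033 over all genes tested. The medians of the last 2 comparisons were the same with Marco set at its bound. This had to be so, because Marco still lay below the middle genes, and it is no check of the medians. The bound against day 5 rests on day 5 replicate 2. The comparisons share libraries in pairs and are not independent of each other.

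The order of the mean levels was the same at each day. It ran Cd36, Msr1, Stab1, Scarb2, Olr1, Scarb1, Cd5l and Marco from highest to lowest mean FPKM. Most neighbours were apart in every library of a day. The exceptions were Scarb1 and Cd5l at day 5, Msr1 and Stab1 as well as Olr1 and Scarb1 at day 14, and Scarb2 and Olr1 at day 28, whose libraries overlapped.

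Within a library, the ratio of levels does not depend on how libraries are scaled. The level of Cd36 was 1.18, 1.29 and 1.40 times that of Msr1 in the day 5 libraries, 1.57 and 3.29 times at day 14, and 4.46 and 3.00 times at day 28. Both day 28 libraries and day 14 replicate 2 stood apart from the other 4. Cd36 made up 32.2%, 35.1% and 35.5% of the summed FPKM of the 8 genes at day 5, 34.0% and 53.0% at day 14, and 61.9% and 49.1% at day 28. The sum itself was 831, 973 and 883 FPKM at day 5, 753 and 880 FPKM at day 14, and 1113 and 891 FPKM at day 28. Olr1 stood at 2.80, 1.77 and 2.07 times the level of Cd5l at day 5, 2.33 and 4.16 times at day 14, and 24.3 and 28.3 times at day 28. These ratios were formed after the values were seen and carry no test.

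**Figure D3:**
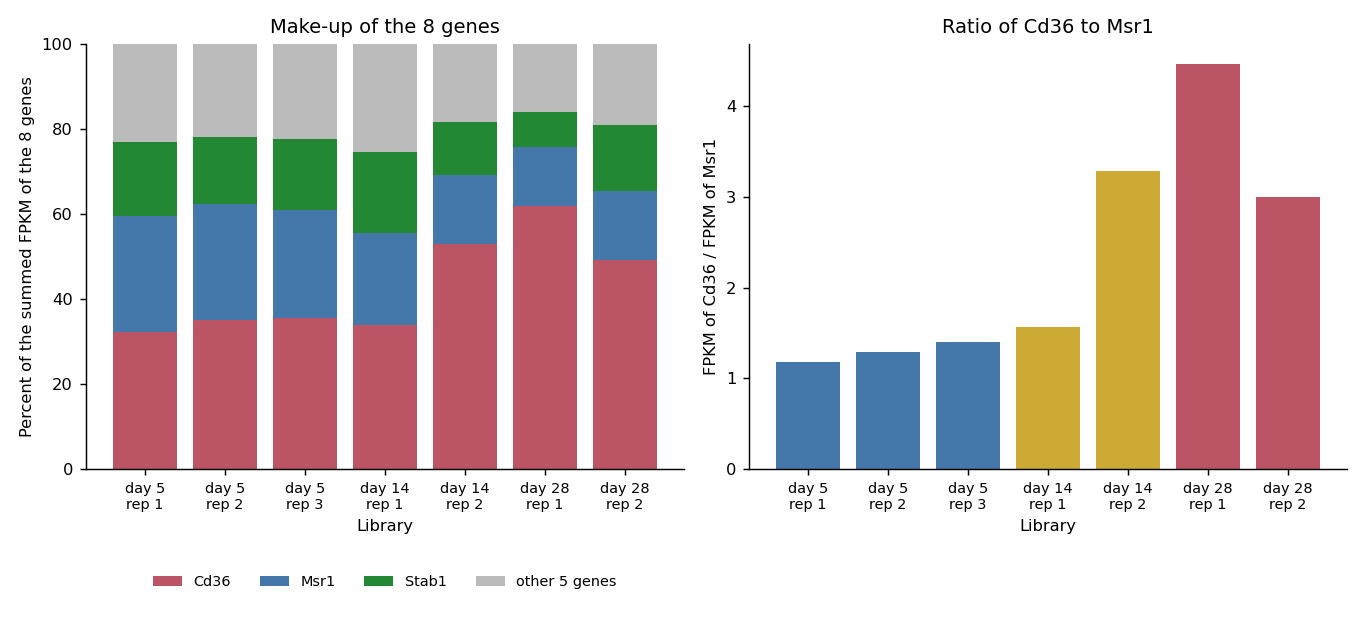
Left, percent of the summed FPKM of the 8 scavenger receptor genes held by Cd36, Msr1, Stab1 and the other 5 genes in each library; right, FPKM of Cd36 divided by FPKM of Msr1 in each library, colored by day. The ratio is between 1.18 and 1.57 in the day 5 libraries and day 14 replicate 1, and between 3.00 and 4.46 in the other 3 libraries.

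In the 250 bases before the RefSeq gene start, sequences were matched for 6 of the 8 genes, and Msr1 and Scarb1 were not matched. GAGGAA occurred on either strand in 23.3% of 32851 promoters of that length, and in those of Marco, Olr1, Stab1 and Cd5l. TGANNNNGC, in 35.2% of promoters, occurred in Scarb2 and Cd5l. AGGTCA, a core bound by nuclear receptors, occurred in 14% of promoters and in those of Cd36 and Olr1. TGANTCA, bound by AP-1, occurred in 6.75% and in Olr1, and CACGTG, the E-box, in 6.02% and in none of the 6. For Marco, Olr1, Stab1 and Cd5l RefSeq and GENCODE give the same start, but the RefSeq start lies 52905 bases inside the GENCODE span of Cd36 and 1176 bases inside that of Scarb2, so for these the stretch searched is not the one before the GENCODE start. A match is a description of the letters and not a binding site.

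Other scavenger receptor genes, 18 in all of which 15 were tested, were counted in the same way. As background for this list and those after it, edgeR called 15.2% of all genes tested at day 28 vs day 5 (7.51% lower). It called 4.78% at day 14 vs day 5 and 0.0622% at day 28 vs day 14. The lists were chosen with earlier results of these data known, so their counts are no test of a pathway. Between days 5 and 28, 1 rose, 3 fell and 11 did not pass, with a median log2 fold change of -0.34. Clec7a, the beta-glucan receptor dectin-1, rose from 49.9 ± 6.39 (SD, n = 3) to 220 ± 64.7 FPKM (SD, n = 2), or 2.15 in log2 units (SE 0.19, adjusted p = 0.000641, edgeR). Lgals3bp, a secreted protein with a scavenger receptor cysteine-rich domain, fell by 1.28 (SE 0.23, adjusted p = 0.00766, edgeR) and Mrc1, the mannose receptor, fell by 0.73 (SE 0.19, adjusted p = 0.0347, edgeR). Scarf1, a class F receptor, fell by 0.57 (SE 0.16, adjusted p = 0.0385, edgeR), but limma did not call it at either pseudocount. Clec7a was called without each library in turn. The call for Lgals3bp was lost without day 28 replicate 1 (adjusted p = 0.0737) or 2 (0.0554). Mrc1 lost its call without day 5 replicates 1, 2 and 3 (0.0883, 0.0969 and 0.0866) and day 28 replicates 1 and 2 (0.204 and 0.0864), as did Scarf1 (0.117, 0.0663 and 0.0634, then 0.209 and 0.0833). The count was 2 without any day 5 library and 1 without either day 28 library.

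At day 14 vs day 5, 2 of these 15 rose. Clec7a rose by 1.22 in log2 units (SE 0.19, adjusted p = 0.0179, edgeR), a call lost without day 5 replicate 1 (0.0665) or 3 (0.0676). Ssc5d, another gene of the cysteine-rich family, rose by 1.99 (SE 0.48, adjusted p = 0.0480, edgeR) on 13 to 68 fragments a library. It was not called by limma, with RLE size factors or when only the days compared were fitted. Over the alternatives its log2 difference ran from 0.53 to 2.38. Its call was lost without day 5 replicates 1, 2 and 3 (0.138, 0.118 and 0.133), day 14 replicates 1 and 2 (0.164 and 0.0627) and day 28 replicates 1 and 2 (0.0593 and 0.0645). The count was 0 without day 5 replicate 1 or 3, 3 without day 14 replicate 1, and 1 without each of the others. At day 28 vs day 14 edgeR called 0 and DESeq2 2, limma called 0, and 4 had an unadjusted p under 0.05. The most abundant, Cd68 and Lgals3bp, differed by -0.14 (SE 0.13) and -1.33 (SE 0.24) in log2 units. Without day 14 replicate 2 there were 4 calls, and Lgals3bp was called at -1.68 (adjusted p = 0.000235, edgeR, within a range over the alternatives of 5.22e-06 to 0.447).

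Genes that sense, store and export lipid, 14 in all and all tested, gave 1 rise and 5 falls between days 5 and 28, with a median log2 fold change of -0.41. Lpl, the lipoprotein lipase that frees fatty acids, rose from 91.4 ± 38.8 (SD, n = 3) to 617 ± 98.9 FPKM (SD, n = 2), or 2.77 in log2 units (SE 0.42, adjusted p = 0.00446, edgeR). Plin2, a coat protein of lipid droplets, fell by 0.92 (SE 0.14, adjusted p = 0.00378, edgeR). The cholesterol exporters Abca1 and Abcg1 fell by 0.91 (SE 0.14) and by 0.74 (SE 0.11), each with an adjusted p of 0.00464 (edgeR). Nr1h3, the oxysterol receptor LXR-alpha, fell by 0.85 (SE 0.15, adjusted p = 0.00731, edgeR). Fabp5, a fatty acid carrier chosen after its values were seen, fell by 0.59 (SE 0.17, adjusted p = 0.0445, edgeR), but limma did not call it at either pseudocount. Lpl, Plin2, Abca1 and Abcg1 were called without each library in turn, and Nr1h3 lost its call without day 28 replicate 1 (0.0730). Fabp5 lost its call without day 5 replicates 1 and 3 (0.136 and 0.124) and day 28 replicates 1 and 2 (0.191 and 0.139).

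Plin2 and Abca1 were already lower at day 14, where Plin2 fell by 0.73 (SE 0.14, adjusted p = 0.0231, edgeR) and Abca1 fell by 0.64 (SE 0.14, adjusted p = 0.0390, edgeR) from day 5. Plin2 lost this call without day 5 replicates 1, 2 and 3 (0.0722, 0.0603 and 0.0878) and day 14 replicate 2 (0.0611). Abca1 lost it without the same libraries (0.123, 0.119, 0.104 and 0.132) and without day 28 replicates 1 and 2 (0.0538 and 0.0558). The count of 2 was 0 without any day 5 library or day 14 replicate 2, 1 without either day 28 library, and 7 without day 14 replicate 1. At day 28 vs day 14 edgeR called 0 and DESeq2 2, limma called 0, and 7 had an unadjusted p under 0.05. The most abundant, Apoe and Plin2, differed by -0.63 (SE 0.26) and -0.19 (SE 0.14) in log2 units. Without day 14 replicates 1 and 2 there were 1 and 2 calls.

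Lysosomal partners of lipid uptake, of which 7 were analysed here, gave 1 rise and 1 fall between days 5 and 28, with a median log2 fold change of -0.22. Lipa, the acid lipase of lysosomes, rose from 220 ± 6.99 (SD, n = 3) to 388 ± 84.1 FPKM (SD, n = 2), or 0.83 in log2 units (SE 0.18, adjusted p = 0.0171, edgeR). Lamp1, a lysosomal membrane glycoprotein, fell by 0.47 (SE 0.12, adjusted p = 0.0296, edgeR). Without day 5 replicates 1, 2 and 3 the adjusted p was 0.0654, 0.0569 and 0.0534 for Lipa and 0.0980, 0.0908 and 0.0798 for Lamp1. Without day 28 replicate 1 it was 0.148 for Lipa and 0.0944 for Lamp1, and without day 28 replicate 2 it was 0.102 for Lamp1, with Lipa still called. The 2 calls thus went to 0 without any day 5 library or day 28 replicate 1, and to 1 without day 28 replicate 2. In each other comparison edgeR, DESeq2 and limma called 0, and 1 gene had an unadjusted p under 0.05. Without day 14 replicate 1 there was 1 call at day 14 vs day 5. The proteases Ctsd and Ctsb, the most abundant, differed by 0.039 (SE 0.12) and -0.25 (SE 0.13) in log2 units from day 5 to day 14, and by -0.27 (SE 0.13) and -0.18 (SE 0.14) from day 14 to day 28. The first of these was -0.038 without day 14 replicate 2.

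Co-receptors and kinases that act with CD36 and SR-A, 10 in all, gave 3 rises and 5 falls between days 5 and 28, with a median log2 fold change of -0.38. Of all genes tested 15.2% were called, and this list too was chosen with earlier results of these data known. The tetraspanin Cd9, a membrane partner of CD36, rose from 138 ± 24.8 (SD, n = 3) to 568 ± 112 FPKM (SD, n = 2), or 2.06 in log2 units (SE 0.29, adjusted p = 0.00313, edgeR). Cd81, another tetraspanin, rose by 2.14 (SE 0.18, adjusted p = 0.000541, edgeR) and the kinase Fyn by 0.64 (SE 0.10, adjusted p = 0.00555, edgeR). The toll-like receptors Tlr2 and Tlr4 fell by 0.97 (SE 0.16, adjusted p = 0.00657, edgeR) and fell by 0.62 (SE 0.15, adjusted p = 0.0278, edgeR). Cd14, whose protein was also part of the sort, fell by 0.76 (SE 0.16, adjusted p = 0.0145, edgeR). The exchange factor Vav1 fell by 0.66 (SE 0.16, adjusted p = 0.0239, edgeR) and the kinase Lyn, chosen after its values were seen, fell by 0.62 (SE 0.12, adjusted p = 0.0116, edgeR).

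Of these calls, those for Cd9, Cd81 and Fyn held without each library in turn. Tlr2 lost its call without day 28 replicate 1 (0.0697), and Cd14 without day 5 replicate 1 (0.0558) or day 28 replicate 1 (0.111). Tlr4 lost it without day 5 replicates 1, 2 and 3 (0.0520, 0.0780 and 0.0890) and day 28 replicate 2 (0.133). Vav1 lost it without day 5 replicates 1 and 2 (0.0858 and 0.0756) and day 28 replicates 1 and 2 (0.148 and 0.0804). Lyn lost it without day 5 replicate 2 (0.0501) and day 28 replicates 1 and 2 (0.0733 and 0.0539). The count of 8 was 5 without day 5 replicate 1, day 5 replicate 2 or day 28 replicate 2, and 4 without day 28 replicate 1.

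At day 14 vs day 5 these 10 genes gave 3 calls. Cd9 rose by 1.39 in log2 units (SE 0.29, adjusted p = 0.0347, edgeR), Cd81 rose by 2.01 (SE 0.18, adjusted p = 0.00475, edgeR) and Cd14 fell by 0.75 (SE 0.16, adjusted p = 0.0357, edgeR). Limma called neither Cd9 nor Cd14, and Cd9 was not called when only the days compared were fitted. With the replicate number as a block none of the 3 was called (adjusted p = 0.0539 for Cd81, edgeR). The call for Cd81 held without each library in turn. Cd9 lost it without day 5 replicates 1, 2 and 3 (0.117, 0.0750 and 0.107), day 14 replicate 2 (0.0937, at 0.72) and day 28 replicates 1 and 2 (0.0566 and 0.0584). Cd14 lost it without day 5 replicates 1, 2 and 3 (0.112, 0.101 and 0.0991) and day 14 replicate 2 (0.1096). Only 1 call was left without any day 5 library or day 14 replicate 2. At day 28 vs day 14 edgeR, DESeq2 and limma called 0, and 4 had an unadjusted p under 0.05. The most abundant, Cd14 and Cd9, differed by -0.011 (SE 0.17) and 0.67 (SE 0.32) in log2 units. Without day 14 replicate 2 there were 2 calls, with Cd9 at 1.34 (adjusted p = 0.00651, edgeR, within a range over the alternatives of 0.00651 to 0.867). The first difference was 0.17 without day 14 replicate 1 and 0.14 without day 28 replicate 1.

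**Figure D4:**
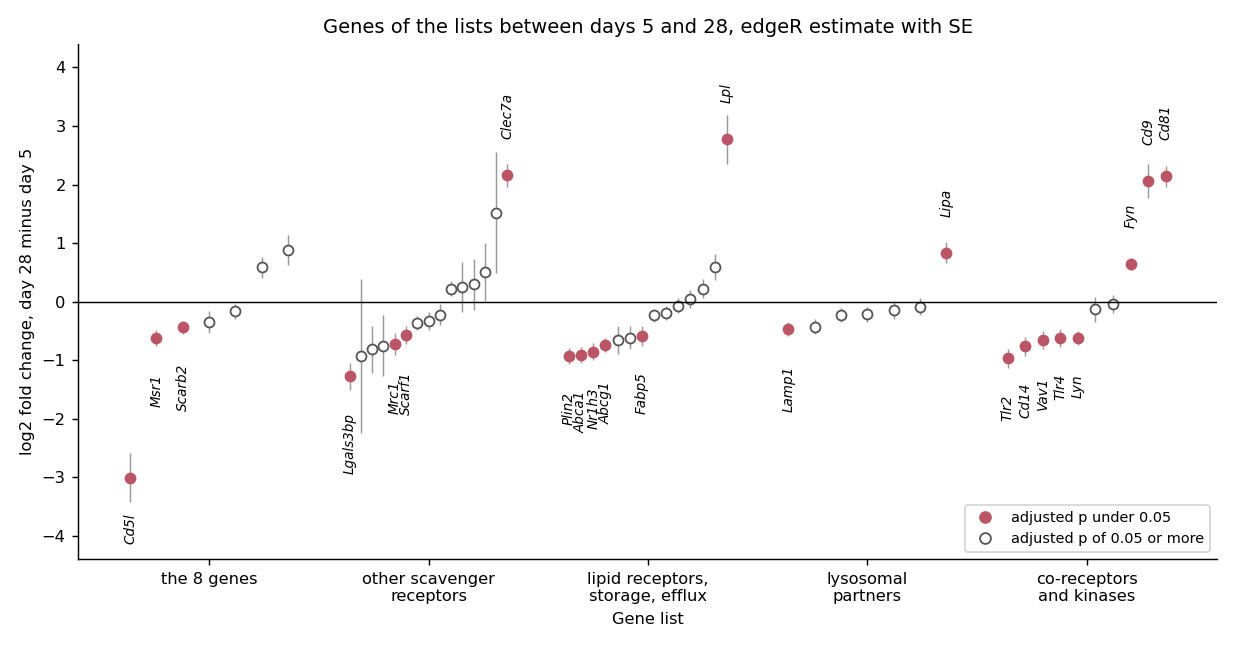
Log2 fold change between days 5 and 28 (day 28 minus day 5) of every tested gene in 5 lists, as estimated by edgeR, with bars of 1 SE; filled and named points have an adjusted p under 0.05. Marco is left out. Lpl, Clec7a, Cd81 and Cd9 lie above 2, and Cd5l lies near -3.

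Over the 7 libraries, the genes whose log2(FPKM + 1) followed each member most closely were found among 7613 genes with a mean of at least 5 FPKM. Pearson's r is given as a description, over 7 libraries that fall into 3 days. For Cd36 these were Fabp7 (r = 0.995) and Ino80c (0.989), with mean levels of Fabp7 of 5.81, 7.96 and 14.6 FPKM at days 5, 14 and 28. For Msr1 they were Vcan and Ankrd17 (0.992 each), with Vcan at 31.3, 11.1 and 11.9 FPKM. For Olr1 they were Commd8 (0.985) and Il7r (0.971), and the level of Il7r was 45.5, 34.0 and 79.8 FPKM. For Cd5l they were Dck (0.990) and Kat2b (0.988), with Dck at 33.3, 24.0 and 13.6 FPKM. Scarb2 was closest to Tspan4 (0.995) and Ada (0.989), Stab1 to Entpd7 (0.988) and Kdm6b (0.985), and Scarb1 to Heatr5b (0.987) and Plekhg3 (0.984). With 7 points many genes correlate closely: r exceeded 0.95 for 98 other genes with Msr1 and for 5 with Olr1.

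Several of the 8 genes are also active in other cells, Cd36 in endothelium, fat cells and platelets, and Stab1 in endothelium. Of 5 adipocyte markers 3 had more than 3 fragments in any library, Adipoq and Lep were at 0 in all 7, and the summed level was 0, 0.202 and 0 FPKM at day 5, 0.183 and 0.0593 FPKM at day 14, and 0.265 and 1.04 FPKM at day 28, with Cfd the most abundant. All 8 endothelial markers were detected, with a sum of 28.3, 15.7 and 21.2 FPKM at day 5, 15.2 and 8.26 FPKM at day 14, and 9.66 and 5.68 FPKM at day 28. Kdr, the most abundant of them, was at 13.05, 8.501 and 11.3 FPKM at day 5, 8.64 and 2.91 FPKM at day 14, and 1.39 and 1.27 FPKM at day 28. In the endothelial sum every day 5 library lay above every later library, but the markers had no common direction. For day 28 vs day 5 edgeR called 2 of 7 tested lower, Kdr among them (only Kdr without day 28 replicate 2), and 1 higher, which was not called without day 5 replicate 2 or 3 or day 28 replicate 1. The median log2 fold change was -0.012. The endothelial protein CD31 is in the paper's antibody table but not among the exclusion markers that its methods text lists. Its gene Pecam1, named after the values were seen, was the other marker called lower (-1.80 in log2 units, SE 0.37, adjusted p = 0.0145, edgeR). The part of endothelial cells in the differences of the 8 genes was not tested.

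All 7 platelet markers were detected, with a sum of 1956, 1482 and 2123 FPKM at day 5, 523 and 412 FPKM at day 14, and 346 and 267 FPKM at day 28. Nearly all of it was Pf4, which is also made by macrophages, at 1924, 1456 and 2067 FPKM at day 5, 519 and 403 FPKM at day 14, and 332 and 257 FPKM at day 28. Of markers chosen after their values were seen, Ppbp was at 31.2, 24.4 and 53.9 FPKM at day 5, 2.70 and 6.79 FPKM at day 14, and 9.83 and 7.39 FPKM at day 28, and Itga2b, the platelet integrin, stayed between 0.152 and 0.393 FPKM. Pf4 and Ppbp were both called lower at day 14 vs day 5 by edgeR, DESeq2 and limma, and by edgeR without each library in turn. For day 28 vs day 5 edgeR called 2 of 5 platelet markers tested lower, again Pf4 and Ppbp (only Pf4 without either day 28 library), and 1 higher, which was not called without any 1 of the day 5 or day 28 libraries. The median log2 fold change was -0.072. The part of platelets in the differences of the 8 genes was not tested.

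Fibroblast markers, all 7 detected with Col1a1 the most abundant, summed to 74.1, 35.6 and 28.8 FPKM at day 5, 223 and 81.2 FPKM at day 14, and 35.6 and 57.0 FPKM at day 28, highest in day 14 replicate 1. Neutrophil markers, 6 of 7 detected with Elane at 0 and S100a9 the most abundant, summed to 239, 266 and 275 FPKM at day 5, 495 and 516 FPKM at day 14, and 252 and 103 FPKM at day 28. Both lists were thus highest in day 14 libraries, and their part in the day 14 comparisons was not tested. The markers by which the sort removed cells included Ly6G, Siglec F, CD3e, Ter119 and Thy1.2. Schwann cell markers, all 6 detected, summed to 10.7, 11.5 and 11.5 FPKM at day 5, 12.9 and 19.9 FPKM at day 14, and 19.9 and 17.7 FPKM at day 28, nearly all from Mbp. Dendritic cell markers, all 5 detected and led by Ccr7, summed to 9.73, 10.2 and 4.95 FPKM at day 5, 18.0 and 8.39 FPKM at day 14, and 14.6 and 25.5 FPKM at day 28. Eosinophil markers (3 of 4 detected, led by Ccr3) summed to 2.18, 1.92 and 1.68 FPKM at day 5, 5.69 and 1.72 FPKM at day 14, and 3.21 and 3.33 FPKM at day 28. T and B cell markers (5 analysed here, all detected and led by Cd3d) summed to 0.384, 0.352 and 0.183 FPKM at day 5, 1.0001 and 0.920 FPKM at day 14, and 0.317 and 0.264 FPKM at day 28.

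Among these lists, edgeR called Mbp higher at day 28 vs day 5 (the only Schwann cell marker tested), Ccr7 (of 5 dendritic cell markers tested) and 1 of 2 eosinophil markers tested. The calls for Mbp and Ccr7 were lost without any 1 of the day 5 or day 28 libraries, and the eosinophil call without either day 28 library. DESeq2 and limma called Mbp and the eosinophil marker but not Ccr7. For day 14 vs day 5 edgeR called 1 of 7 fibroblast markers higher, DESeq2 2 and limma 0. There were 4 higher without day 14 replicate 2 and 0 without any 1 of the day 5 or day 28 libraries, and without day 14 replicate 2 the same number was lower for day 28 vs day 14. Of 3 neutrophil markers tested, edgeR and limma called 0 in either comparison with day 14, although 3 had an unadjusted p under 0.05 in edgeR in each, and DESeq2 called 1 higher at day 14 vs day 5 and 2 lower at day 28 vs day 14. By edgeR 2 of these 3 were higher at day 14 vs day 5 without either day 28 library. A further marker, Ngp, was not tested with all libraries and was named after its values were seen. Its level was 1.25 FPKM in day 14 replicate 2 and 0 in every other library. The part of these cells in the differences of the 8 genes was not tested.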

How the data were processed

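Macrophage RNA of 7 libraries was analysed (day 5, n = 3, and days 14 and 28, n = 2 each). The paper gives n = 3 per group for this sequencing. Per the submitters' processing notes, reads were trimmed with cutadapt 1.8, mapped to mm10 with TopHat2 2.0.13 and counted with Cuffdiff 2.2.1. The authors deposited 3 values per gene and library: estimated counts of fragments, a scaled signal (those fragments after Cuffdiff's scaling between libraries) and FPKM. The deposited estimated counts were rounded to whole numbers, since 0.947% were further than 1e-06 from a whole number. The deposited FPKM values were used for levels and the deposited scaled signal for an alternative scaling.

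Days were compared with edgeR 4.0.16 in R 4.3.3 (quasi-likelihood F test, TMM, filterByExpr by day, all 7 libraries in 1 fit, Benjamini-Hochberg adjustment over 12858 genes, called at an adjusted p under 0.05). SE is the size of the log2 fold change over the square root of F, an approximation. DESeq2 1.42.0, limma 3.58.1 and other settings were alternatives. The test was tested on simulated data. Same-day libraries differed by 15.5 to 62.0 times counting noise (chi-square per degree of freedom); whether any share RNA is not known. A floor of 3 fragments covers counting error only.

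The members and lists were chosen with earlier results of these data known, and lists overlap in part. Named genes were the 8 members; from each list the called genes, at most 4 in each direction for day 28 vs day 5, all for other comparisons where 5 or fewer were called, and the 2 most abundant where none was; from each marker list the most abundant; and, for each member with a mean of at least 5 FPKM, the 2 genes most like it. Coordinates come from GENCODE M21 (GRCm38, the same assembly as mm10).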

Additional observations from a re-analysis of the deposited data

How the results depend on the processing

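The number of scavenger receptor genes called, 1, 0 and 3 for day 5 to day 14, for day 14 to day 28 and for day 5 to day 28, was the same with RLE size factors, Cuffdiff's scaling and limma on log2(FPKM + 1) or log2(FPKM + 0.1). DESeq2 called 1, 2 and 6 and leaving out the expression filter 2, 2 and 6. Fitting only the libraries of the 2 days compared called 0, 0 and 5, and an adjusted p under 0.01 left 0, 0 and 1. Leaving out each library in turn gave 0 to 3, 0 to 3 and 1 to 5.

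Of all genes, 614, 8 and 1960 were called. DESeq2 called 1366 and 332 in the first pair of comparisons, no expression filter 1429 and 390, limma 252 and 0 with a pseudocount of 1 and 277 and 0 with 0.1, and fitting only the 2 days 315 and 0; in the last comparison these moved the count by less than 1.5 times. An adjusted p under 0.01 left 24, 0 and 597. Without each library in turn the counts were 52 to 1728, 0 to 629 and 452 to 2746; where a day was left with 1 library, that library is assumed to vary like the others. The cause of these shifts was not tested.

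Replicate numbers are shared between days. Deviations of same-numbered libraries from their day means were correlated over 7613 genes. The values were 0.175 and 0.045 between days 5 and 14, and 0.084 and 0.025 between days 5 and 28. Between days 14 and 28 the value was -0.054 for both numbers, which must be equal with 2 libraries on each day and count as 1 value. The numbers were not taken to pair the libraries, but these correlations cannot exclude a pairing. With the number as a block, 0, 0 and 1 of the 8 genes and 6, 0 and 735 of all genes were called; that fit has 2 residual degrees of freedom, the other 4. The gene still called was Cd5l. Among the named list genes, the block lost every call at day 14 vs day 5. At day 28 vs day 5 it lost those for Mrc1, Scarf1, Fabp5, Lamp1, Lipa, Cd14, Vav1 and Tlr4. With the day 28 numbers swapped, a fit chosen after the data were seen, the block gave 0, 0 and 4 of the 8 and 357, 63 and 1579 of all genes, so the block counts depend on how the numbers are matched.

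Of 355 refitted log2 fold changes of the 8 genes (24 values), 299 kept their direction and side of the threshold, 18 lost the call, 23 gained it, 14 changed sign and 1 went to 0. None that changed sign was called. Msr1 at day 28 vs day 14 was -0.0047 with DESeq2, -0.0048 with RLE size factors, -0.0040 with Cuffdiff's scaling and -0.019 with limma at either pseudocount, and ran from -0.11 to 0.12 without each library. Leaving out a library also gave -0.27 to 0.61 for Cd36, -0.12 to 0.046 for Scarb2 and -6.79 to 0.71 for Marco at day 14 vs day 5, and -0.45 to 0.14 for Stab1 and -7.54 to 0 for Marco at day 28 vs day 14. The values for Marco rest on 0 to 31 fragments and are no measure of size. Of 555 refitted values of the named list genes, 450 kept their direction and side of the threshold. The call was lost in 98 and gained in 4. Another 3 changed sign, all without a library: Ctsd at day 14 vs day 5 (-0.038 to 0.11) and Cd14 at day 28 vs day 14 (-0.19 to 0.17).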
